A study of Homo sapiens with 8 samples.

Results

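The genes described here encode molecular chaperones and co-chaperones of the cytosol and mitochondria outside the HSP70 family, with the heat shock factors HSF1 and HSF2. They were chosen by symbol, as 38 named genes of 24252 rows in the deposited tables, and each symbol matched 1 row. The cells were HaCaT, an immortalised line of human skin keratinocytes, and total RNA was sequenced from 8 libraries. Of these, 4 were labelled OGD-R, for cells deprived of oxygen and glucose and then resupplied, taken at what the labels call an early stage, and 4 were labelled Control, with no treatment named. How long each step lasted is not stated, nor whether the libraries of a group are separate cultures, so p-values here reflect only library-to-library spread, possibly of technical origin. The values were read as FPKM, fragments scaled by transcript length and by library total, a scale that allows levels of different genes to be compared per length. Read totals are not given, so the depth behind each value is unknown. In bulk RNA, fewer cells of a type and less RNA per cell cannot be told apart.

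Chaperones bind unfolded protein and keep it from aggregating, and several of them use ATP to drive folding. HSP90 acts late, on kinases, steroid receptors and other clients that HSP70 and its J-domain partners hand over, while the chaperonins HSP60 and TRiC enclose their clients in a barrel. HSF1 is the transcription factor that raises many of these genes when unfolded protein builds up, and HSP90 and HSP70 hold it inactive in unstressed cells. Keratinocytes carry large amounts of HSP27, the product of HSPB1, which is more abundant in the upper layers of the epidermis. Not every gene fits the group's name: SERPINH1 encodes HSP47, a collagen chaperone of the endoplasmic reticulum, and HSPH1 encodes HSP110, a distant relative of HSP70.

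The letters of the heat shock element, the DNA site of HSF1, are shown first because this factor and several genes it is known to control are among those described. RefSeq promoter windows on GRCh38.p14, from 250 bases before to 50 bases after a gene's start, were matched for 34 of the 38 genes, with no window used for BAG4, CCT6A, CRYAB and HSF1. They were searched for GAANNTTCNNGAA and for TTCNNGAANNTTC (N is any base), which is the same motif on the other strand. Of all 35116 windows, 172 held a match (0.490%), and 7 of the 51 windows of these genes did, those of HSP90AA1, HSP90AB1, CHORDC1, DNAJA1, DNAJB6, SERPINH1 and HSPD1. A match is a description of letters, and its absence from a window says only that these letters are not there. The windows of the cytosolic HSP90 pair, of the HSP90 co-chaperone gene CHORDC1 and of the J-domain gene DNAJA1 are printed 5′ to 3′ on the gene's strand, with the matched letters in capitals.
HSP90AA1 (chr14:102086995-102087294, minus strand): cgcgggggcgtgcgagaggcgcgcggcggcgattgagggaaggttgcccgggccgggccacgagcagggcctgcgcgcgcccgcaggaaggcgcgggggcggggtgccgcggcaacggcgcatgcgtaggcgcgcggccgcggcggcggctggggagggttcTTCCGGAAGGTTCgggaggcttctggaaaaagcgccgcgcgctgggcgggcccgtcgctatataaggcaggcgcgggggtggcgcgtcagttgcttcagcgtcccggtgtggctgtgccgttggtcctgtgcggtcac
HSP90AB1 (chr6:44247693-44247992, plus strand): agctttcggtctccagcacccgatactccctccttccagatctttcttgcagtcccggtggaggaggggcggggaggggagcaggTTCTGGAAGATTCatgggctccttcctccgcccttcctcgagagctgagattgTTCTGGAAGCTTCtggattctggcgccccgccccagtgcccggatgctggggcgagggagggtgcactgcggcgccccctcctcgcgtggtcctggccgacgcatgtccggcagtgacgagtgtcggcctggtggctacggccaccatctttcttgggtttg
CHORDC1 (chr11:90223000-90223299, minus strand): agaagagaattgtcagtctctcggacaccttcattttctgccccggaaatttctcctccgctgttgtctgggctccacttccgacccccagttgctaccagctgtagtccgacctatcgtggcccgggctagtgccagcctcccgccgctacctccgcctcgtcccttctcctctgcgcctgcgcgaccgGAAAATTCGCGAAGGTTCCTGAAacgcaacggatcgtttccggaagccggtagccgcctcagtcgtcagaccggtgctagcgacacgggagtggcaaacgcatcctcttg
DNAJA1 (chr9:33025023-33025322, plus strand): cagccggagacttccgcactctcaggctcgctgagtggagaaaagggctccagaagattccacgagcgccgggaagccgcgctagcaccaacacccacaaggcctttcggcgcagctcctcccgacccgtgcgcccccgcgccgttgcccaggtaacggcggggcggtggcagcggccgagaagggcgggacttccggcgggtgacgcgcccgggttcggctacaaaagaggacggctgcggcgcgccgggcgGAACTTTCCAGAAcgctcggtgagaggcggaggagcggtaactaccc

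In CHORDC1 the matched letters form 1 stretch of 23 bases made of 3 overlapping matches, and in HSP90AB1 there are 2 separate stretches. The stretch in DNAJA1 begins 4 bases into the transcript, and that in HSP90AA1 lies 88 to 76 bases before the start. SERPINH1 held TTCCAGAAGTTTC and DNAJB6 held GAACCTTCGCGAA. HSPD1 held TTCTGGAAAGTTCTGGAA in the window of the start that lies further inside the gene. HSPD1 and HSPE1, the genes of HSP60 and its lid HSP10, are read in opposite directions from neighbouring starts on chromosome 2. The HSPE1 window overlaps the other HSPD1 window, not the one that holds the match.

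The Control libraries fell in 2 places. Both Controls 1 and 2 were above both Controls 3 and 4 in 30 of the 38 genes and below them in 7, against 48.1% and 34.1% of all genes tested. Across the 11740 genes averaging 1 FPKM or more, log2 values correlated between 0.992 and 0.993 among OGD-R libraries, at 0.992 between Controls 1 and 2, at 0.991 between Controls 3 and 4, and between 0.874 and 0.881 across those pairs. OGD-R libraries correlated between 0.940 and 0.947 with Controls 1 and 2 and between 0.879 and 0.887 with Controls 3 and 4, so Controls 3 and 4 stood apart from all 6 other libraries (genes are not independent replicates). CDK1, a kinase of mitotic entry, was at 47.6, 46.9, 45.4 and 46.7 FPKM in OGD-R libraries 1 to 4, against 61.7, 73.3, 4.81 and 2.79 FPKM in Controls 1 to 4. ATF3, a transcription factor induced by many stresses, was at 3.46, 3.66, 3.20 and 4.56 FPKM in OGD-R libraries 1 to 4, against 5.01, 3.41, 147 and 139 FPKM in Controls 1 to 4. Both genes thus set Controls 3 and 4 apart, and the part of either in the results was not tested. All 6 keratinocyte markers examined were above 1 FPKM in every library. Their summed level lay between 12811 and 13565 FPKM in OGD-R and between 9385 and 17304 FPKM in Control. They differed in direction: KRT5 (4884 to 5130 FPKM in OGD-R, 1984 to 3027 FPKM in Control), KRT14 and DSG3 were higher in every OGD-R library than in any Control, SFN was lower, and KRT17 did not exceed 2435 FPKM in OGD-R and Controls 1 and 2, while Controls 3 and 4 had 9933 and 9796 FPKM. Of the 5 fibroblast markers none was above 1 FPKM in every library and COL1A2 was at 0 throughout, with sums of 3.81 to 4.97 FPKM in OGD-R and 0.876 to 8.69 FPKM in Control. The sums of 4 melanocyte, 4 immune and 3 endothelial markers stayed at or below 0.666 FPKM in every library. Many results below are therefore given against all 4 Controls and also against Controls 1 and 2 and against Controls 3 and 4 apart. These are called the first and the second pair. A value given only against all 4 Controls need not hold against each pair. A fit against 1 pair takes its error from those 2 Controls and the 4 OGD-R libraries. It leaves out the spread between the pairs, which were formed with these values known, so its calls and p-values describe those libraries only.

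With all 8 libraries, 2 of the 38 genes rose in OGD-R and 3 fell. Every one of the 38 passed the filter on low values and was tested. BAG1 and HSF2 rose, and HSF1, CRYAB and BAG3 fell (limma on log2(FPKM + 1), Benjamini-Hochberg adjusted p under 0.05 over all 11740 genes). The share called was 5.26% higher and 7.89% lower, beside 10.2% higher and 9.69% lower among all genes tested, so it did not exceed the background. The median log2 fold change of the 38 genes was -0.21, with 8 above 0 and 30 below, beside 0.02 over all genes, with 6086 above 0 and 5654 below. All OGD-R libraries exceeded all Controls for 2 genes and lay below all of them for 6, where 15.2% and 14.8% of all tested genes did so. A further 18 of the 38 had every OGD-R library between Controls 1 and 2 on the one side and Controls 3 and 4 on the other, against 20.4% of all tested genes.

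**Figure D1:**
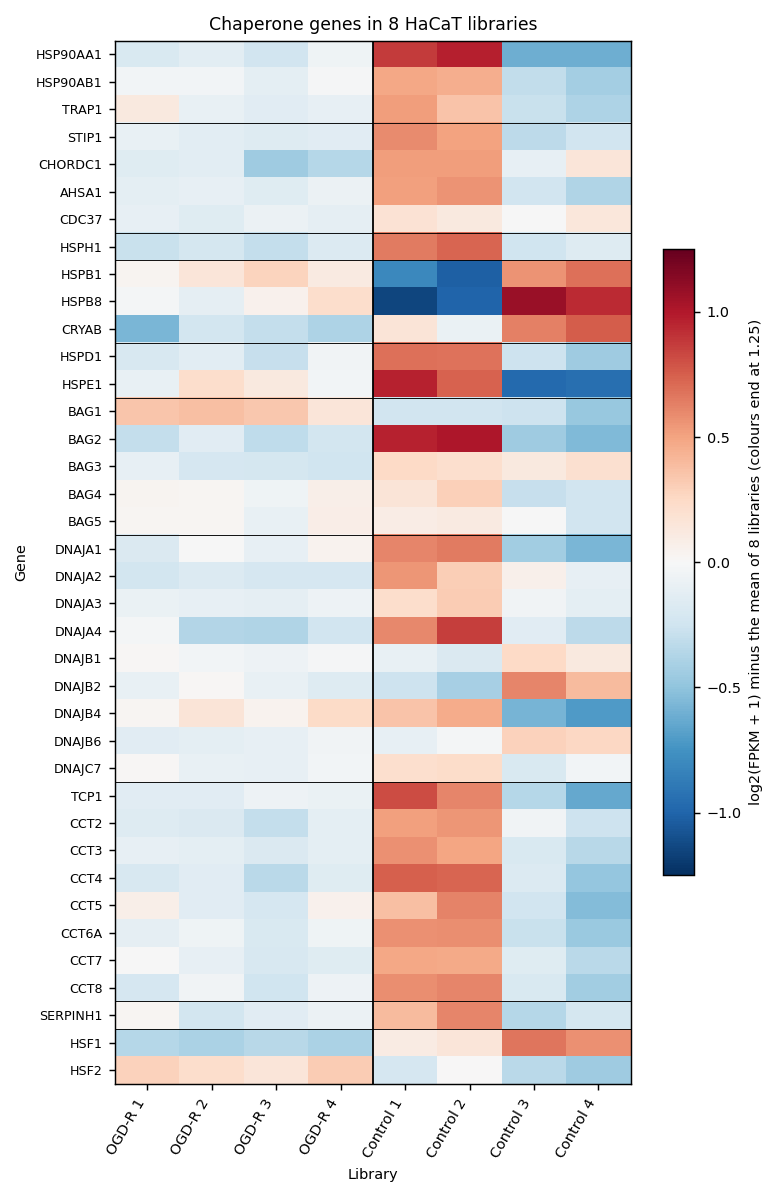
Heat map of 38 chaperone genes (down) in 4 OGD-R and 4 Control libraries (across), coloured by log2(FPKM + 1) minus the gene's mean over the 8 libraries, with lines between families. Controls 1 and 2 stand above Controls 3 and 4 in 30 genes and below them in 7, among them HSPB1, HSPB8, CRYAB and HSF1, where 48.1% and 34.1% of all genes tested have these orders.

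HSF1 fell and HSF2 rose in OGD-R. HSF1, the main heat shock factor, on chromosome 8 (ENSG00000185122), was at 22.9, 22.3, 23.03 and 22.2 FPKM in OGD-R libraries 1 to 4, against 31.9, 32.9, 47.6 and 44.3 FPKM in Controls 1 to 4. The groups did not overlap, and Controls 3 and 4 were higher than Controls 1 and 2. Its log2 fold change was -0.75 ± 0.141 (SE; limma adjusted p = 0.00881), and it was called against either pair, at -0.50 against Controls 1 and 2 and at -0.99 against Controls 3 and 4. HSF2, a related factor that can pair with HSF1 and acts in development and under stress, lies on chromosome 6, 122399546 to 122433119, plus strand, in GRCh38. It was at 5.66, 5.36, 5.06 and 5.79 FPKM in OGD-R libraries 1 to 4, against 3.70, 4.46, 3.32 and 2.99 FPKM in Controls 1 to 4. Again no library of 1 group reached the other, and the log2 fold change was 0.49 ± 0.112 (SE; limma adjusted p = 0.0184). Against Controls 1 and 2 it was 0.35 and against Controls 3 and 4 it was 0.64, both called. The HSF2 call with all Controls was lost when OGD-R 1, 2 or 4 was left out (limma adjusted p between 0.0556 and 0.0636), with log2 fold changes between 0.47 and 0.50 there. The ratio of HSF1 to HSF2 in FPKM was 4.15 ± 0.303 in OGD-R and 11.3 ± 3.84 in Control (SD, n = 4 each), with Controls 3 and 4 at 14.3 and 14.8 and Controls 1 and 2 at 8.62 and 7.37. HSF1 overlaps DGAT1 on the opposite strand, which averaged 3.95 FPKM over all libraries, and whether strand was used in counting is not given.

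The BAG proteins, which release client and nucleotide from HSP70 through a shared BAG domain, split in direction. BAG1, which also links HSP70 to the proteasome, lies on chromosome 9, 33247820 to 33264720, minus strand. Its level was 36.6, 37.5, 36.5 and 31.9 FPKM in OGD-R libraries 1 to 4, against 24.1, 24.04, 23.8 and 20.4 FPKM in Controls 1 to 4. No Control reached the lowest OGD-R library, and unlike most of the genes described, BAG1 was nearly level across Controls 1, 2 and 3. Its log2 fold change was 0.61 ± 0.0938 (SE; limma adjusted p = 0.00364), the smallest adjusted p of the 38 genes, and it was 0.55 and 0.67 against the first and the second pair of Controls. BAG3, which directs HSP70 clients to selective autophagy together with HSPB8, lies on chromosome 10, 119651370 to 119677819, plus strand. BAG3 was at 54.8, 50.9, 50.5 and 49.6 FPKM in OGD-R libraries 1 to 4, against 70.4, 68.5, 64.2 and 68.1 FPKM in Controls 1 to 4. All OGD-R libraries were lower than all Controls, which stayed close together, and the log2 fold change was -0.39 ± 0.0765 (SE; limma adjusted p = 0.0102). The ratio of BAG3 to BAG1 in FPKM was thus 1.45 ± 0.0937 in OGD-R and 2.95 ± 0.273 in Control (SD, n = 4 each).

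Of the other BAG genes none was called with all libraries. BAG2, an inhibitor of the ubiquitin ligase CHIP, was at 1.40, 1.67, 1.37 and 1.51 FPKM in OGD-R libraries 1 to 4, against 4.74, 4.93, 1.17 and 1.02 FPKM in Controls 1 to 4. OGD-R thus lay just above Controls 3 and 4 and far below Controls 1 and 2, and BAG2 was called both ways, at -1.23 on the log2 scale against Controls 1 and 2 and at 0.25 against Controls 3 and 4. BAG4, which holds death receptors silent, lay between 5.29 and 5.88 FPKM in OGD-R and between 4.36 and 7.04 FPKM in Control. BAG5, which carries several BAG domains, was called against neither pair; its log2 fold change of 0.02 had a 95% interval of -0.22 to 0.25. BAG5 overlaps KLC1 on the opposite strand, which averaged 43.3 FPKM, against 16.9 ± 0.917 FPKM for BAG5 in OGD-R (SD, n = 4). BAG4 and BAG2 likewise overlap LSM1 and RAB23 on the opposite strand, which averaged 14.7 and 1.91 FPKM. Other genes described here have such overlaps too, among them DNAJA4 with WDR61, which averaged 31.8 FPKM.

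**Figure D2:**
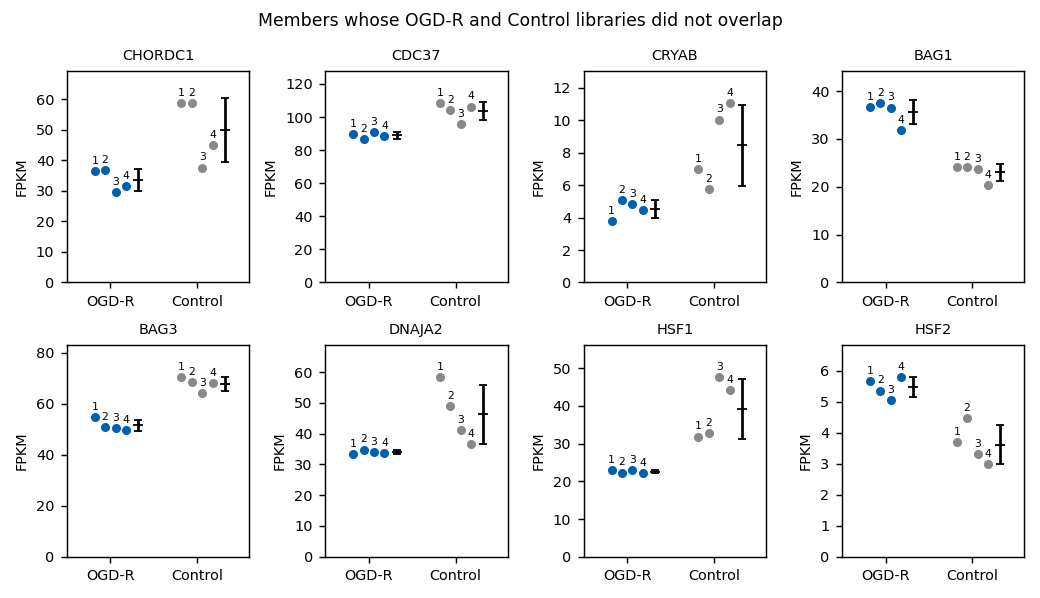
FPKM of the 8 genes whose OGD-R (blue) and Control (grey) libraries did not overlap; points are libraries numbered by replicate, and bars give the mean and SD of 4. BAG1 and HSF2 lie wholly above Control and the other 6 wholly below, with CDC37 and BAG3 level across the Controls and HSF1, CRYAB, CHORDC1 and DNAJA2 spread by Control pair.

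Small heat shock proteins, which hold unfolded protein without ATP, had no common direction with all libraries or against Controls 1 and 2. Against Controls 3 and 4 all 3 were called lower. HSPB1, the HSP27 gene and by far the most abundant of the 3, was at 681, 736, 806 and 719 FPKM in OGD-R libraries 1 to 4, against 381, 326, 981 and 1067 FPKM in Controls 1 to 4. All OGD-R libraries lay between the pairs of Controls. HSPB1 did not pass with all libraries (log2 fold change 0.29, 95% interval -0.61 to 1.19; limma adjusted p = 0.637), and was called higher against Controls 1 and 2 (1.06) and lower against Controls 3 and 4 (-0.48). HSPB8, the partner of BAG3, was at 2.59, 2.39, 2.79 and 3.25 FPKM in OGD-R libraries 1 to 4, against 0.644, 0.823, 6.70 and 5.99 FPKM in Controls 1 to 4. It showed the same order, with log2 fold changes of 1.11 against Controls 1 and 2 and -0.97 against Controls 3 and 4. CRYAB, the alpha B crystallin gene, was at 3.81, 5.10, 4.81 and 4.46 FPKM in OGD-R libraries 1 to 4, against 6.97, 5.74, 10.04 and 11.1 FPKM in Controls 1 to 4. The groups did not overlap, though OGD-R 2 and Control 2 were close. The CRYAB log2 fold change was -0.74 ± 0.193 (SE; limma adjusted p = 0.031), and this call was lost when any 1 OGD-R library, Control 3 or Control 4 was left out (limma adjusted p between 0.0552 and 0.0908), with log2 fold changes between -0.78 and -0.61. For CRYAB it was -0.41 against Controls 1 and 2 and -1.06 against Controls 3 and 4, both called. CRYAB shares its locus on chromosome 11, 111908565 to 111923722, minus strand, with C11orf52 on the other strand, at a mean of 3.22 FPKM.

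The cytosolic HSP90 genes were the most abundant of the ATP-driven chaperones described here, and neither was called with all libraries. HSP90AA1, the heat-inducible isoform, was at 510.4, 530.5, 494 and 562 FPKM in OGD-R libraries 1 to 4, against 1071, 1142, 380.3 and 381 FPKM in Controls 1 to 4. HSP90AB1, the constitutive isoform, was at 696, 697, 657 and 709.7 FPKM in OGD-R libraries 1 to 4, against 1002, 982, 575 and 531 FPKM in Controls 1 to 4. In both genes Controls 1 and 2 were highest, Controls 3 and 4 lowest, and OGD-R between them. For HSP90AA1 the log2 fold change was -0.31 (95% interval -1.20 to 0.58; limma adjusted p = 0.61), with -1.08 against Controls 1 and 2 and 0.46 against Controls 3 and 4. For HSP90AB1 it was -0.10 (95% interval -0.61 to 0.40; limma adjusted p = 0.776), with -0.52 and 0.32 against those pairs. The balance between them differed by library: the ratio of HSP90AA1 to HSP90AB1 was 0.734, 0.761, 0.752 and 0.791 in OGD-R 1 to 4, and 1.07, 1.16, 0.661 and 0.717 in Controls 1 to 4. HSP90AA1 thus exceeded HSP90AB1 in Controls 1 and 2, and HSP90AB1 exceeded HSP90AA1 in the other 6 libraries. TRAP1, the mitochondrial HSP90, lay between 67.3 and 81.2 FPKM in OGD-R, and at 107, 95.98, 61.2 and 56.9 FPKM in Controls 1 to 4. It had the same order, with log2 fold changes of -0.50 and 0.28 against the first and the second pair.

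Among the co-chaperones of HSP90, CHORDC1 and CDC37 lay wholly below Control in OGD-R. CHORDC1, a CHORD-domain partner of HSP90, was at 36.5, 36.9, 29.5 and 31.4 FPKM in OGD-R libraries 1 to 4, against 58.6, 58.7, 37.6 and 44.96 FPKM in Controls 1 to 4. It missed the threshold narrowly, with a log2 fold change (± SE) of -0.54 ± 0.163 and an adjusted p of 0.0502 by limma, and without Control 3 it passed, at -0.67 (limma adjusted p = 0.0197). CHORDC1 had log2 fold changes of -0.79 against Controls 1 and 2 and -0.29 against Controls 3 and 4, both called. CDC37, which brings kinases to HSP90, lay between 86.5 and 91.1 FPKM in OGD-R and between 95.9 and 109 FPKM in Control. The groups were apart but the difference was small, with a log2 fold change (± SE) of -0.22 ± 0.0762 and an adjusted p of 0.0798 by limma. STIP1, the adaptor that joins HSP70 to HSP90, was at 160.1, 155, 152 and 155 FPKM in OGD-R libraries 1 to 4, against 258, 242, 136 and 144 FPKM in Controls 1 to 4. AHSA1, which speeds the ATPase of HSP90, was at 108 ± 2.57 FPKM in OGD-R (SD, n = 4), and at 167, 172, 98.4 and 89.2 FPKM in Controls 1 to 4. STIP1 and AHSA1 followed the order of the HSP90 genes, and neither passed with all libraries (limma adjusted p = 0.43 and 0.511).

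HSPH1, which exchanges nucleotide on HSP70, was at 63.9, 66.4, 62.96 and 69.1 FPKM in OGD-R libraries 1 to 4, against 122, 129, 65.1 and 69.6 FPKM in Controls 1 to 4. Its log2 fold change was -0.93 against Controls 1 and 2, and against Controls 3 and 4, whose range OGD-R overlapped, it was -0.04 (95% interval -0.19 to 0.11; limma adjusted p = 0.639). With all libraries it was -0.48 (95% interval -1.02 to 0.05; limma adjusted p = 0.185).

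The mitochondrial chaperonin genes diverged within Control. HSPD1, the barrel subunit, was at 261, 275, 246 and 291 FPKM in OGD-R libraries 1 to 4, against 484, 483, 250.4 and 221 FPKM in Controls 1 to 4. HSPE1, the lid, was at 69.8, 86.98, 81.3 and 73.1 FPKM in OGD-R libraries 1 to 4, against 147, 125, 37.6 and 38.3 FPKM in Controls 1 to 4. OGD-R overlapped Controls 3 and 4 for HSPD1 but lay wholly above them for HSPE1. Against Controls 3 and 4 the log2 fold change was 1.01 for HSPE1 (limma adjusted p = 9.18e-06) and 0.19 for HSPD1 (limma adjusted p = 0.0775), and against Controls 1 and 2 it was -0.80 and -0.85. The ratio of HSPD1 to HSPE1 lay between 3.03 and 3.98 in OGD-R, and was 3.30, 3.87, 6.67 and 5.76 in Controls 1 to 4. With all libraries neither passed (limma adjusted p = 0.424 for HSPD1 and 0.889 for HSPE1). GENCODE 29 names 26 pseudogenes of HSPE1 and 17 of HSPD1, the most among the 38 genes, and none of these has a deposited value. How reads were divided among such copies is not given. HSPE1 also lies inside the span of HSPD1, on the opposite strand, and whether strand was used in counting is not given. Over all libraries HSPD1 averaged 314 FPKM and HSPE1 82.3 FPKM. The levels of HSPE1 and HSPD1, and their ratio, are therefore uncertain.

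**Figure D3:**
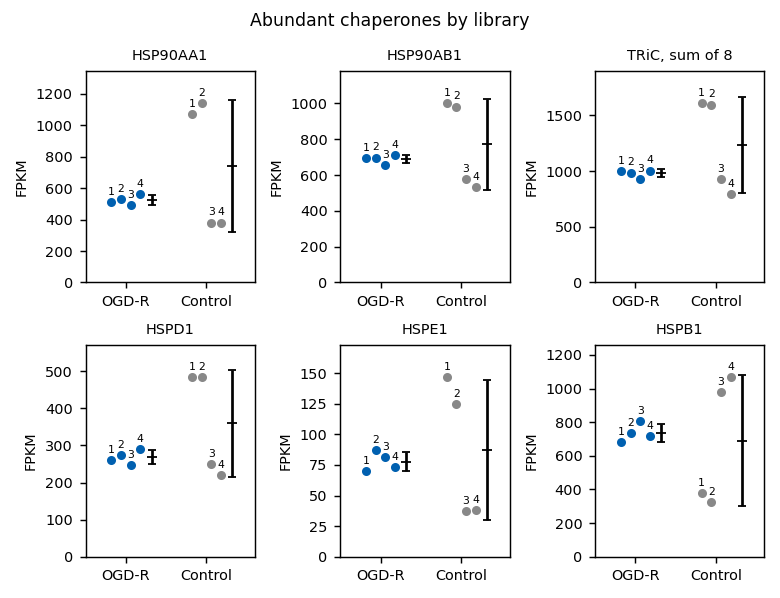
FPKM in OGD-R (blue) and Control (grey) libraries of HSP90AA1, HSP90AB1, the summed 8 TRiC subunits, HSPD1, HSPE1 and HSPB1; points are libraries numbered by replicate, and bars give the mean and SD of 4. Controls 1 and 2 are highest in every panel except HSPB1, where they are lowest, and the OGD-R libraries lie close together.

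TRiC, the cytosolic chaperonin that folds actin and tubulin, is built from 8 different subunits in equal number. Summed over the 8 genes, FPKM was 999, 987, 928 and 1005 in OGD-R 1 to 4, and 1612, 1597, 927 and 794 in Controls 1 to 4. OGD-R 3 and Control 3 were level, and Controls 1 and 2 stood apart above all other libraries. With all libraries 0 of the 8 subunits passed the limma test, and 0 had an unadjusted p under 0.05; log2 fold changes lay between -0.41 (CCT4) and -0.11 (CCT5), with adjusted p between 0.2 and 0.788. Against Controls 1 and 2 all 8 were called lower, with log2 fold changes from -0.94 to -0.55. Against Controls 3 and 4 TCP1 (0.39), CCT5 (0.33) and CCT6A (0.27) were called higher and the other 5 were not called, CCT2 at -0.03 being the only one below 0.

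Within the TRiC sum the largest share was that of CCT3, between 16.03% and 17.9% over the 8 libraries, and the smallest that of CCT8, between 6.85% and 7.80%. TCP1, the founding subunit, varied most, from 11.7% in Control 4 to 15.8% in Control 1, and lay between 13.2% and 15.0% in OGD-R. CCT4 was at 94.98, 99.1, 86.1 and 98.1 FPKM in OGD-R libraries 1 to 4, against 183, 181, 96.9 and 77.96 FPKM in Controls 1 to 4. CCT2, by comparison, was at 109.7, 108, 99.9 and 113 FPKM in OGD-R libraries 1 to 4, against 175, 181, 119 and 102 FPKM in Controls 1 to 4. In both genes Controls 1 and 2 stood apart, and OGD-R overlapped Controls 3 and 4.

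**Figure D4:**
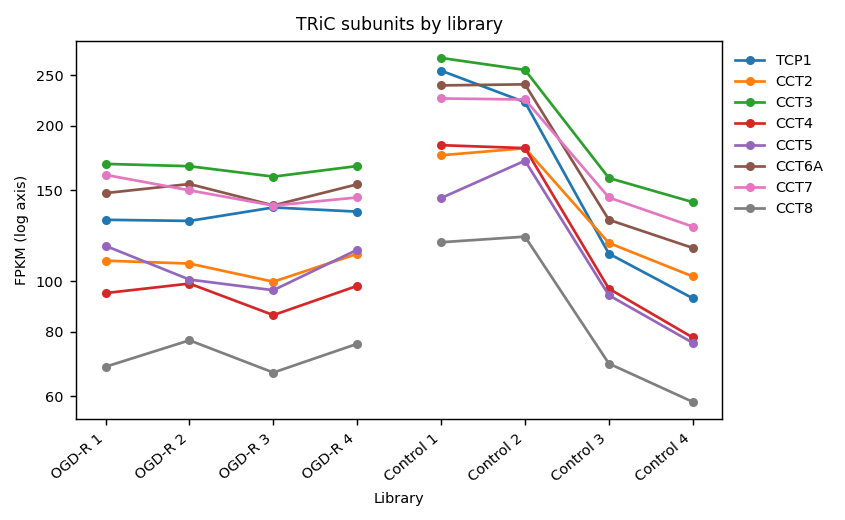
FPKM of the 8 TRiC subunit genes on a log axis in each OGD-R and Control library; lines join the values of 1 gene within a group. Every gene is highest in Controls 1 and 2, and CCT8 is the lowest of the 8 in every library.

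The 9 J-domain genes, whose products bring clients to HSP70 and trigger its ATPase, differed among themselves in how the Controls were ordered. None was called with all libraries, 1 had an unadjusted limma p under 0.05 (DNAJA2), and the limma adjusted p lay between 0.0749 (DNAJA2) and 0.794 (DNAJA1). DNAJA2, a general cytosolic J-protein, was at 33.3, 34.8, 33.98 and 33.8 FPKM in OGD-R libraries 1 to 4, against 58.3, 48.9, 41.1 and 36.7 FPKM in Controls 1 to 4. It was the only J-domain gene whose groups did not overlap, with a log2 fold change of -0.41 ± 0.141 (SE), and it passed without Control 4, at -0.51 (limma adjusted p = 0.0291). For DNAJA2 the log2 fold change was -0.64 against the first pair and -0.19 against the second, both called. DNAJA1, one of the printed genes, was at 51.2, 58.1, 54.1 and 60.1 FPKM in OGD-R libraries 1 to 4, against 89.8, 92.3, 42.8 and 38.8 FPKM in Controls 1 to 4, in the order of HSP90AA1. DNAJB1, the classical heat-inducible HSP40, was at 87.3, 84.2, 83 and 85.8 FPKM in OGD-R libraries 1 to 4, against 80.8, 76.2, 103 and 94.5 FPKM in Controls 1 to 4. Its order was the reverse, Controls 3 and 4 being above OGD-R and Controls 1 and 2 below, with log2 fold changes of 0.11 against the first pair (not called) and -0.21 against the second (called).

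DNAJB2, a J-protein best known from neurons, shared that reversed order, at 27.5 ± 1.41 FPKM in OGD-R (SD, n = 4), and at 24.2, 21.5, 45.1 and 38.7 FPKM in Controls 1 to 4. DNAJB6, which suppresses aggregation, lay between 54.6 and 58.3 FPKM in OGD-R, and at 56.1, 59.03, 73.9 and 72.1 FPKM in Controls 1 to 4. In DNAJB6 the OGD-R values met those of Controls 1 and 2, and the log2 fold change against that pair was -0.04. DNAJB4, in contrast, was at 10.1 ± 0.797 FPKM in OGD-R (SD, n = 4), and at 12.1, 13.1, 5.84 and 5.25 FPKM in Controls 1 to 4, and was called lower against Controls 1 and 2 (-0.29) and higher against Controls 3 and 4 (0.76). DNAJA3, the mitochondrial J-protein, DNAJA4 and DNAJC7, which binds both HSP70 and HSP90, were called lower against Controls 1 and 2 and not called against Controls 3 and 4. Their log2 fold changes were -0.35, -0.98 and -0.27 against the first pair. SERPINH1, the collagen chaperone gene, had the same calls, at 95.5 ± 7.34 FPKM in OGD-R (SD, n = 4) and at 135, 157, 80.01 and 87.9 FPKM in Controls 1 to 4, with -0.61 against the first pair and 0.18 against the second.

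Across the 38 genes, the choice of Controls thus changed both the count and the direction of the calls. Against Controls 1 and 2, 30 genes were called lower and 5 higher, that is 78.9% and 13.2%, beside 32.4% and 22.8% of all genes. Against Controls 3 and 4, 11 were called lower and 14 higher, that is 28.9% and 36.8%, beside 28.4% and 39.2% of all genes, so the shares were near the background. The median log2 fold change was -0.57 against the first pair (-0.05 over all genes) and 0.13 against the second (0.09 over all genes). Both fits share the OGD-R libraries. In 15 of the 38 genes the calls were in opposite directions, against 15.2% of all genes: HSP90AA1, HSP90AB1, TRAP1, AHSA1, HSPE1, BAG2, BAG4, DNAJA1, DNAJB4, TCP1, CCT5 and CCT6A were lower against Controls 1 and 2 and higher against Controls 3 and 4 (10.5% of all genes), and HSPB1, HSPB8 and DNAJB2 were the other way round (4.68% of all genes). BAG1 and HSF2 were called higher against both pairs, where 12.1% of all genes were, and HSF1, BAG3, CRYAB, CHORDC1, CDC37 and DNAJA2 lower against both, where 11.9% of all genes were. These are the 8 genes whose groups did not overlap.

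**Figure D5:**
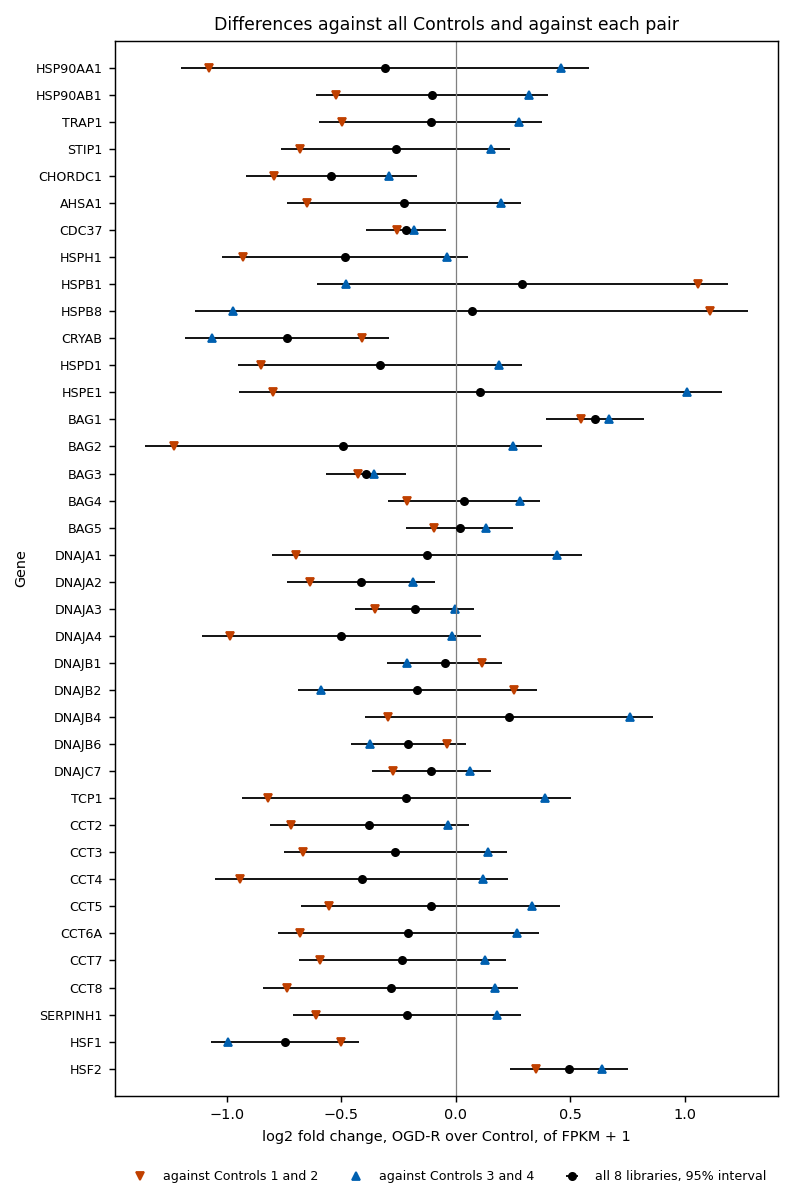
Log2 fold change of FPKM + 1, OGD-R over Control, for 38 genes: black points and bars give all 8 libraries with the 95% interval from limma, and triangles the fits against Controls 1 and 2 and against Controls 3 and 4. Triangles stand on opposite sides of 0 for HSP90AA1, HSPB1 and HSPE1 and on the same side for BAG1, BAG3, HSF1 and HSF2.

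Taken as shares of the summed FPKM of a library, the 38 genes together held 0.928%, 0.952%, 0.923% and 0.949% in OGD-R 1 to 4, and 1.32%, 1.36%, 1.01% and 0.974% in Controls 1 to 4. On this scale every OGD-R library was below every Control, narrowly so for Control 4. In summed FPKM itself the order against Controls 3 and 4 turned, with 4391, 4451, 4328 and 4509 FPKM in OGD-R 1 to 4, and 6282, 6242, 4321 and 4200 FPKM in Controls 1 to 4. The HSP90 genes held between 0.260% and 0.282% in OGD-R, and 0.459%, 0.482%, 0.237% and 0.225% in Controls 1 to 4. No test was made of these sums, because the genes were chosen with results of these data known. Over all genes, summed FPKM was 428984 and 431282 in Controls 3 and 4, and between 467589 and 475385 in OGD-R. The fits against a pair of Controls were not repeated under another scaling. How far small log2 fold changes in those fits depend on scale was thus not tested.

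Of 51 other genes of protein folding and mitochondrial protein quality control, 48 were high enough to be tested, of which 2 rose and 8 fell with all libraries. That is 4.17% higher and 16.7% lower, beside 10.2% and 9.69% of all genes. The 2 that rose were FKBP5 and HSPB3. FKBP5, an HSP90-binding immunophilin that restrains the glucocorticoid receptor, had a log2 fold change (± SE) of 2.29 ± 0.0738 and an adjusted p of 1.07e-05 by limma. HSPB3, a small heat shock protein known from muscle, was at 6.36, 7.48, 9.15 and 6.06 FPKM in OGD-R libraries 1 to 4, against 0.805, 0.456, 1.36 and 1.54 FPKM in Controls 1 to 4. The groups were far apart, with a log2 fold change (± SE) of 2.04 ± 0.201 and an adjusted p of 0.0005 by limma.

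LONP1, the protease of the mitochondrial matrix, was among the 8 that fell. Its log2 fold change was -0.32 against Controls 1 and 2 and -0.81 against Controls 3 and 4. It was at 14.2 ± 0.828 FPKM in OGD-R and 21.7 ± 4.57 FPKM in Control (SD, n = 4 each), and DNLZ, which keeps mitochondrial HSP70 soluble, at 3.995 ± 0.815 FPKM and 7.52 ± 1.52 FPKM. GRPEL1 and GRPEL2, exchange factors of mitochondrial HSP70, fell too, with log2 fold changes of -0.42 and -0.55, while other mitochondrial genes of the list (CLPB, CLPX, CLPP, HSCB, TOMM70, DNAJC11 and DNAJC19) were not called. PFDN2, a subunit of prefoldin, which hands actin and tubulin to TRiC, was at 51.04, 56.7, 53.5 and 51.1 FPKM in OGD-R libraries 1 to 4, against 79.3, 68.4, 117 and 121 FPKM in Controls 1 to 4. Its log2 fold change was -0.81 ± 0.189 (SE; limma adjusted p = 0.0206), while PFDN1, PFDN4, PFDN5, PFDN6 and VBP1, the other prefoldin genes, were not called. For PFDN2 it was -0.47 against Controls 1 and 2 and -1.15 against Controls 3 and 4. TOMM34, a co-chaperone of mitochondrial import, fell by 0.70 on the log2 scale, STUB1, the ubiquitin ligase CHIP, by 0.40, and SGTA by 0.43. For TOMM34 the log2 fold change was -0.997 against Controls 1 and 2 and -0.41 against Controls 3 and 4. GRPEL1, GRPEL2, STUB1 and SGTA were named after their values were seen. Without OGD-R 1, 2, 3 or 4 the count lower was 3, 1, 1 and 2. Of the 48 genes 14 (29.2%) were called lower against Controls 1 and 2 and higher against Controls 3 and 4, beside 10.5% of all genes, and 0 the other way round, beside 4.68%.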

How the data were processed

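RNA was sequenced from 4 OGD-R and 4 Control libraries of HaCaT cells, grouped by title. What the authors deposited is 1 table for each library, pairing IDs and symbols with 1 value; the sources used here name no aligner, counting tool or build. The deposited values were read as FPKM, since the tables name no unit and sums per library lay between 428984 and 475385. In single-exon genes, between 21 and 34 of 133 to 170 low values per library fitted 1 common step within 0.5%, too few to read a depth. FPKM divides by the library total, so abundant genes lower all others.

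The test was limma 3.58.1 on log2(FPKM + 1) (with R 4.3.3 and an intensity trend) for the 11740 genes averaging 1 FPKM or more, adjusted by Benjamini-Hochberg over all of them at 0.05. The added 1 shrinks fold changes of low genes. Fits against a pair of Controls kept these genes. The design foresaw a count model only for counts. All 19974 Ensembl IDs were found in GENCODE 29 (GRCh38), which gave the coordinates. GENCODE 29 names pseudogenes for 15 of the 38 genes. Promoter windows came from RefSeq on GRCh38.p14. The test was tried on simulated data drawn with the spread of the OGD-R libraries and no split between Controls. That trial does not show how the test behaves with such a split. Figures used matplotlib 3.10.9 in Python 3.11.15.

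The genes, lists and pairs of Controls were chosen with earlier results of these data known. All 38 genes are described. Of the other proteostasis genes, the rule named those called, at most 4 of the largest in each direction. Alternatives covered pseudocounts (0.1 and 0.5), filters (none and 0.1 FPKM), each library left out, pairs of Controls, a replicate block, scalings, no trend and group weights.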

Additional observations from a re-analysis of the deposited data

Results flagged for a closer look

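BAG1 in Control 4, at 20.4 FPKM, lay apart from the other Controls, which were between 23.8 and 24.1 FPKM. It was the only library of 88 groups of 4 values checked whose gap to its neighbour passed the 95% limit of Dixon's test, a limit that chance passes in about 1 of 20 groups. Without Control 4 the log2 fold change of BAG1 was 0.55 (limma adjusted p = 0.00711), against 0.61 with all libraries.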

How the results depend on the processing

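With 2 called higher and 3 lower among the 38 genes, the pseudocounts, both filters, the fit without a trend and the group weights changed no call. Leaving out single libraries gave 1 to 2 higher and 2 to 3 lower. Without Controls 3 and 4 the counts were 5 higher and 30 lower, and without Controls 1 and 2 they were 14 higher and 11 lower. Of 48 other proteostasis genes, 2 were higher and 8 lower; single libraries left out gave 1 to 8 lower, group weights 5 lower, the absence of Controls 3 and 4 2 higher and 30 lower (4.17% and 62.5%, beside 22.8% and 32.4% of all genes), and the absence of Controls 1 and 2 22 higher and 11 lower (45.8% and 22.9%, beside 39.2% and 28.4%). The replicate block, which takes libraries of equal number as pairs, gave 1 higher and 2 lower of the 38, and 1 lower of the 48. It lost HSF2, CRYAB and BAG3 (limma adjusted p = 0.0712, 0.0666 and 0.0678) and gained CHORDC1 (0.044). The labels state no pairing, and deviations from group means correlated between 0.045 and 0.0646 for same-numbered libraries. OGD-R 1 and 2 correlated between 0.045 and 0.109 with Controls 1 and 2, and between -0.0871 and -0.0268 with Controls 3 and 4. OGD-R 3 and 4 correlated between 0.053 and 0.113 with Controls 3 and 4, and between -0.106 and -0.0276 with Controls 1 and 2. The signs thus followed the Control pairs, and within them OGD-R 1 correlated more with Control 2 (0.0666) than with Control 1. The reason was not tested. The CRYAB call was lost under both scalings (limma adjusted p = 0.0504 by median ratios, 0.057 without mitochondrial genes), while median ratios added CHORDC1 and DNAJA2. Scaling without mitochondrial genes gave 1600 higher and 871 lower over all genes, against 1202 and 1138. Calls of BAG1 and HSF1 remained under every alternative run, and that of BAG3 under all but the replicate block.

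Log2 fold changes that turned round and were called without Controls 1 and 2 were 0.46 for HSP90AA1, 0.32 for HSP90AB1, 0.28 for TRAP1, 0.20 for AHSA1, -0.48 for HSPB1, -0.97 for HSPB8, 0.25 for BAG2, 0.44 for DNAJA1, 0.39 for TCP1, 0.33 for CCT5 and 0.27 for CCT6A. Without Controls 3 and 4 they were -0.80 for HSPE1, -0.21 for BAG4, 0.25 for DNAJB2 and -0.29 for DNAJB4. The cause of the split between Controls was not tested. Depth is unknown, so counting error cannot be set apart for low genes such as HSPB8 and BAG2.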
